A study of Mus musculus with 8 samples.

Results

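The genes described here are 9 genes that start, restrain or dissolve blood clots in the vessel wall and tissue: F3, Tfpi, Thbd, Procr, Plat, Plau, Plaur, Serpine2 and Vwf. They were chosen by symbol, and each was read from the probe set that carries that single symbol, with the highest mean where a gene has several. Of the 9 genes, 8 were measured in this way, out of 19938 genes with a single symbol. No probe set carries the single symbol Serpine2, the gene of the protease inhibitor nexin-1, in the annotation used here, so Serpine2 has no value below. The tissue was myocardium of 8 male mice of strain CH3, 8 to 10 weeks old, each of which had the left anterior descending coronary artery closed for 45 minutes and reopened for 2 hours. At 1 hour before ligation, 4 mice had received recombinant DJ-1 protein and 4 had received PBS as placebo; every mouse in both groups went through ischaemia and reperfusion, and no heart without it was analysed. Each heart gave 1 Affymetrix array of log2 expression values, and the comparison asks which transcripts differ in reperfused myocardium after DJ-1. The labels name no batch and do not state outright that each sample is a separate animal; each was taken as 1 mouse, and the p-values measure the spread between these 8 samples.

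Clotting in tissue starts when tissue factor, the product of F3, meets coagulation factor VII of the blood, and the inhibitor made from Tfpi stops that step. Endothelium restrains the thrombin that follows: thrombomodulin (Thbd) turns thrombin into an activator of protein C, and the endothelial protein C receptor (Procr) presents protein C to it. Fibrin is dissolved by plasmin, which the tissue-type (Plat) and urokinase-type (Plau) activators release from plasminogen. The urokinase receptor (Plaur) holds urokinase on the surface of leukocytes and other cells, nexin-1 inhibits thrombin and both activators, and von Willebrand factor (Vwf) tethers platelets to an injured vessel.

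Promoter sequence was available for 5 of the 9 genes in the RefSeq table (F3, Tfpi, Procr, Plaur and Serpine2, build GRCm38.p6). The sequences printed here are the 250 bases before the listed start of Plaur, Procr and F3, the measured genes whose levels ranged most widely among the 8 hearts, and capitals mark matches to the AP-1 motif TGANTCA. The windows are chr7:24462233-24462482 for Plaur, chr2:155750967-155751216 for Procr and chr3:121723287-121723536 for F3, all on the plus strand. The start that a window ends at is not always that of the gene entry: the entry of Plaur starts at 24460937, before its whole window, and that of Procr at 155751125, so that 92 of the 250 bases of Procr lie inside the entry.
Plaur: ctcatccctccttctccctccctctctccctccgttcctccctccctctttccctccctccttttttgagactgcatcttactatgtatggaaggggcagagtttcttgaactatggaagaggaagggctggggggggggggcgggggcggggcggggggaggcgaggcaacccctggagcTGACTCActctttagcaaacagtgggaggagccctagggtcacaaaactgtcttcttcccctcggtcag
Procr: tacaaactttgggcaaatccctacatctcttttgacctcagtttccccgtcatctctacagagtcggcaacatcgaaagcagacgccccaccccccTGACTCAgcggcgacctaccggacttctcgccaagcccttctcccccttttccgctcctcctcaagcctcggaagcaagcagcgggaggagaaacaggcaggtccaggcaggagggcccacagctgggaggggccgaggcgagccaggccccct
F3: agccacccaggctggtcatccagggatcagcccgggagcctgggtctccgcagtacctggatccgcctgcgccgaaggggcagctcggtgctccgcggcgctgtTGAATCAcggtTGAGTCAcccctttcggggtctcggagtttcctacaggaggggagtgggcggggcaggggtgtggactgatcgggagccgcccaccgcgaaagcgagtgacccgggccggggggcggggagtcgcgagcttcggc
The AP-1 motif, which reads the same on both strands, matched at 69 bases before the listed start of Plaur, 154 before that of Procr, and 146 and 135 before that of F3. It matched neither window of Tfpi nor that of Serpine2. Of all 32851 promoter windows of this length, 6.75% hold it. The EGR motif GCGNGGGCG, held by 4.70% of all windows, matched once in Plaur, at 109 bases before the start, and once in Serpine2. A loose NF-kappaB pattern (GGG and CC set 5 bases apart) matched in all 3 printed windows but is held by 45.8% of all windows. On either strand the hypoxia motif ACGTG (16.6% of all windows) matched in none of the 5 genes, the KLF motif CACCC (52.0%) in F3, Procr and Tfpi, the ETS motif CAGGAA (25.7%) in Tfpi and Serpine2, and TATAAA (12.4%) in the first Tfpi window. Overlapping matches of different motifs were not resolved, and a match describes letters and not a bound site.

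None of the 8 measured genes differed between DJ-1 and placebo hearts past an adjusted p of 0.05 (limma, Benjamini-Hochberg over all 19938 genes), where the share over all genes was 0.0%. None of the 8 had an unadjusted p under 0.05, which 5.99% of all genes had. In none of them did the 4 DJ-1 values lie clear of the 4 placebo values, which they did for 3.22% of all genes. The mean was higher in DJ-1 hearts for 4 genes (Plaur, Plat, Vwf, Tfpi) and lower for 4 (F3, Plau, Procr, Thbd), and the median difference was -0.013, against 0.0082 over all genes and -0.014 over the genes above the olfactory level defined next. All 8 had a mean above 4.74, the 95th percentile of 1027 olfactory receptor genes that heart hardly transcribes, as did 13693 genes in all.

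**Figure D1:**
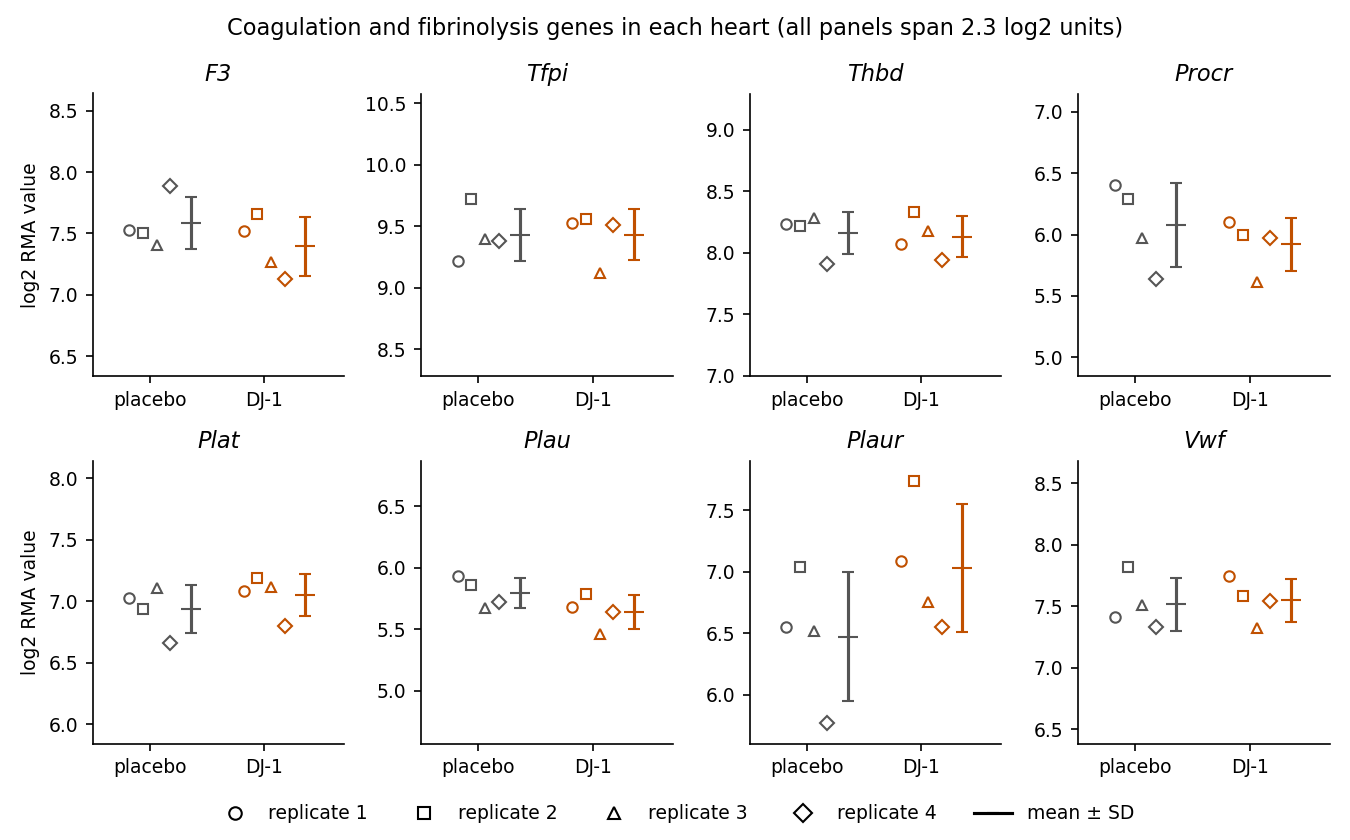
Log2 RMA values (vertical axis) of the 8 measured genes in 4 placebo (grey) and 4 DJ-1 (orange) hearts, with replicate numbers as symbols and the mean ± SD beside each group; every panel spans the same number of log2 units. Plaur spreads from 5.77 to 7.74, and the groups overlap in every panel.

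Plaur, the urokinase receptor gene (probe set 10550906), varied most. Its log2 values were 6.55, 7.04, 6.52 and 5.77 in the placebo hearts (replicates 1 to 4), then 7.09, 7.74, 6.75 and 6.55 in the DJ-1 hearts; all lists of 4 values below follow this order. All 4 DJ-1 hearts lay above the placebo median, and 2 of them (replicates 1 and 2) lay above every placebo heart, but DJ-1 replicates 3 and 4 lay below placebo replicate 2. The placebo mean was 6.47 ± 0.52 (SD, n = 4) and the DJ-1 mean 7.03 ± 0.52 (SD, n = 4). The difference on the log2 scale was 0.56 (SE 0.28, 95% confidence interval -0.049 to 1.18), or 1.48-fold with an interval from 0.967 to 2.26. It did not pass (limma unadjusted p = 0.0679, adjusted p = 0.824; exact two-sided permutation p = 0.143, where 0.0286 is the smallest that 4 against 4 hearts can give). Both the spread within groups and the difference were large for these arrays: 98.9% of the genes above the olfactory level had a smaller pooled SD than the 0.522 of Plaur, and 99.6% had a smaller absolute difference between groups.

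The size of the Plaur difference depended on single hearts. Without DJ-1 replicate 2, which held the highest value, the difference was 0.33, and without placebo replicate 4, which held the lowest, it was also 0.33. Without placebo replicate 2 it was 0.75, and without DJ-1 replicates 3 and 4 it was 0.945. The latter arrays stand apart on the first principal component (19.6 and 23.5, against -15.0 to 5.31 for the others). In both of these settings the groups no longer overlapped, and the limma adjusted p values were 0.826 and 0.987. The hearts left out held the highest placebo value of Plaur (7.04) and its lowest DJ-1 values (6.75 and 6.55). Smaller groups also lie apart more easily, and the share of all genes without overlap was not counted in these settings.

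Plaur followed the level of neutrophil markers across hearts. Neutrophils enter reperfused myocardium early and carry the urokinase receptor. The mean of 14 measured neutrophil markers, centred per gene on the log2 scale, was -0.22, 0.73, -0.54 and -1.26 in the placebo hearts, then 0.75, 0.94, -0.01 and -0.39 in the DJ-1 hearts. The hearts with the highest neutrophil means, DJ-1 replicates 2 and 1 and placebo replicate 2, were also the 3 with the highest Plaur, and placebo replicate 4 was lowest in both. Over the 8 hearts Pearson's r was 0.948 (exact permutation p = 7.44e-05, adjusted p = 0.00119 over the 16 relations of 8 genes with the neutrophil and endothelial lists). Spearman's rho was 0.976 (exact permutation p = 0.000397, adjusted p = 0.00635). Without the hearts farthest from the median neutrophil mean, placebo replicate 4 and DJ-1 replicate 2, r was 0.985, on residuals from the group means it was 0.937, and without DJ-1 replicates 3 and 4 it was 0.949 (exact permutation, adjusted p = 0.0222). Of 13680 other genes above the olfactory level and outside the marker list, 15 (0.11%) had an r with the neutrophil mean at least as high.

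Each of the 14 neutrophil markers had its higher mean with DJ-1, as did 10470 of all 19938 genes. The 14 markers were read from the same 8 hearts, so they are not 14 separate results. An unadjusted limma p under 0.05 was found for 2 of them, Ltf and Lcn2, and for 5.99% of all genes. Ltf had means of 3.69 and 4.04, within the olfactory range. None of the 14 passed the adjusted threshold, and 12 of the 14 lay above the olfactory level. The list means ranged from -1.26 to 0.73 in placebo and from -0.39 to 0.94 in DJ-1 hearts. In a fit with the neutrophil mean as a covariate, added after the data were seen, the Plaur difference was 0.14 (SE 0.14, limma adjusted p = 0.785). In tissue RNA of this kind, fewer cells of a type and less RNA per cell cannot be told apart. Against 8 other marker lists, also added after the data were seen, the r of Plaur was 0.761 with monocytes and macrophages (Spearman's rho 0.786; exact permutation p = 0.0169 and 0.0279, adjusted p = 0.136 and 0.183 over these 8 relations), and 0.639 without placebo replicate 4 and DJ-1 replicate 1. None of the 8 relations passed (exact permutation adjusted p from 0.136 to 0.872 for r). On residuals from the group means, r of Plaur was 0.783 with monocytes and macrophages. With endocardium it was 0.833, against 0.568 before the group means were removed. With the other lists the residual r ran from -0.596 (cardiomyocytes) to 0.570 (platelets and megakaryocytes). The residual values were given no p.

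**Figure D2:**
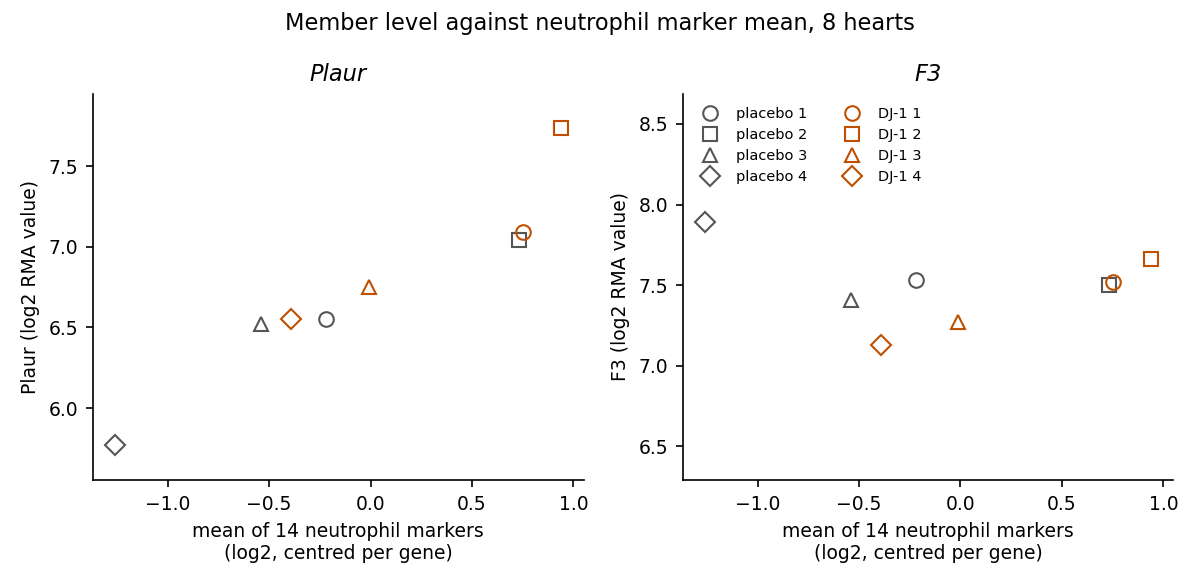
Log2 RMA value of Plaur (left) and F3 (right) against the mean of 14 neutrophil markers (log2, centred per gene) in 8 hearts, grey for placebo and orange for DJ-1, with replicate numbers as symbols. Plaur rises with the neutrophil mean (r = 0.948); for F3 r is -0.108 with all hearts and 0.677 without placebo replicate 4.

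The 5 genes whose pattern over the 8 hearts was most like that of Plaur, by Pearson's r among genes above the olfactory level, were Slfn1 (0.982), Chil1 (0.971), Cd14 (0.967), Rac2 (0.966) and Cd300lf (0.964). Cd14 is the lipopolysaccharide co-receptor of myeloid cells, Rac2 a small GTPase of blood cells, and Cd300lf a receptor of myeloid cells. Cd14 averaged 7.02 ± 0.53 over placebo and 7.64 ± 0.78 over DJ-1 hearts (SD, n = 4 each). None of the 5 passed the group comparison (limma adjusted p from 0.824 to 0.830). These r values are a description of 8 arrays, picked as the highest among the 13693 genes above the olfactory level after some were left out. Left out were predicted genes, RIKEN clones, olfactory and vomeronasal receptors, small RNA genes and genes named only by a sequence number.

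The plasminogen activators had narrower ranges over the 8 hearts than Plaur (0.53 log2 units for Plat and 0.47 for Plau, against 1.97). Plat (probe set 10570855) had log2 values of 7.03, 6.94, 7.11 and 6.66 in the 4 placebo hearts, then 7.08, 7.19, 7.12 and 6.80 in the 4 DJ-1 hearts. Replicate 4 was the lowest heart of each group, and 2 DJ-1 hearts exceeded every placebo heart. The Plat means were 6.94 ± 0.19 and 7.05 ± 0.17 (SD, n = 4 each), a difference of 0.11 (SE 0.12, 95% confidence interval -0.16 to 0.38). Plau (probe set 10413047) had log2 values of 5.93, 5.86, 5.67 and 5.72 in the 4 placebo hearts, then 5.68, 5.79, 5.46 and 5.64 in the 4 DJ-1 hearts. All 4 DJ-1 hearts lay below the placebo median of Plau, and 2 lay below every placebo heart. Its means were 5.79 ± 0.12 and 5.64 ± 0.14 (SD, n = 4 each), a difference of -0.16 (SE 0.10, 95% confidence interval -0.38 to 0.071, limma adjusted p = 0.834). The activator Plau and its receptor Plaur thus had differences of opposite sign, neither past the threshold, and their r was 0.14 over the 8 hearts and 0.628 on residuals from the group means.

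F3 (probe set 10495675), the gene of tissue factor, had log2 values of 7.53, 7.50, 7.41 and 7.89 in the 4 placebo hearts, then 7.52, 7.66, 7.27 and 7.13 in the 4 DJ-1 hearts. Placebo replicate 4, the heart with the lowest neutrophil mean and the lowest Plaur, had the highest F3, and DJ-1 replicates 3 and 4 lay below every placebo heart. The means were 7.58 ± 0.21 and 7.40 ± 0.24 (SD, n = 4 each), and the difference was -0.19 (SE 0.14, 95% confidence interval -0.49 to 0.12, limma adjusted p = 0.847). Without DJ-1 replicates 3 and 4 the difference was 0.0080. The r of F3 with the neutrophil mean was -0.108 (Spearman's rho 0.095; exact permutation p = 0.807 and 0.840, adjusted p = 0.954 and 0.977), but 0.677 without placebo replicate 4 and 0.535 without placebo replicate 4 and DJ-1 replicate 2. It was 0.107 on residuals from the group means, -0.649 within the placebo hearts and 0.994 within the DJ-1 hearts. Its sign thus changed with the hearts kept and with the removal of the group means. Its antagonist Tfpi (probe set 10484389) had log2 values of 9.22, 9.72, 9.40 and 9.38 in the 4 placebo hearts, then 9.53, 9.56, 9.12 and 9.51 in the 4 DJ-1 hearts. The Tfpi means were 9.43 ± 0.21 and 9.43 ± 0.21 (SD, n = 4 each), and the interval of the difference ran from -0.29 to 0.29, which is 0.819-fold to 1.23-fold.

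In the protein C system, Thbd (probe set 10488378) had log2 values of 8.23, 8.22, 8.28 and 7.91 in the 4 placebo hearts, then 8.07, 8.33, 8.18 and 7.94 in the 4 DJ-1 hearts. Replicate 4 was again the lowest in each group. The Thbd means were 8.16 ± 0.17 and 8.13 ± 0.17 (SD, n = 4 each), a difference of -0.030 with a 95% confidence interval from -0.29 to 0.23. Procr (probe set 10477717) had log2 values of 6.40, 6.29, 5.97 and 5.64 in the 4 placebo hearts, then 6.10, 6.0, 5.61 and 5.97 in the 4 DJ-1 hearts. The placebo hearts alone covered 0.76 log2 units, and all 4 DJ-1 hearts lay below the placebo median. The Procr means were 6.07 ± 0.34 and 5.92 ± 0.21 (SD, n = 4 each), and they differed by -0.15 (SE 0.17, 95% confidence interval -0.52 to 0.21), less than the SD of the placebo hearts. With the neutrophil mean as a covariate it was -0.33 (SE 0.15, limma unadjusted p = 0.0523, adjusted p = 0.577).

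Vwf (probe set 10541910), a product of endothelium and platelets, had log2 values of 7.41, 7.82, 7.51 and 7.33 in the 4 placebo hearts, then 7.75, 7.58, 7.32 and 7.54 in the 4 DJ-1 hearts. The highest and the next to lowest values were both placebo hearts. The means were 7.52 ± 0.21 and 7.55 ± 0.18 (SD, n = 4 each), and the difference was 0.030 (SE 0.13, 95% confidence interval -0.25 to 0.31). The signs of the small differences of Tfpi, Thbd and Vwf changed with the scaling of the arrays or with single hearts left out, so they give no direction.

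**Figure D3:**
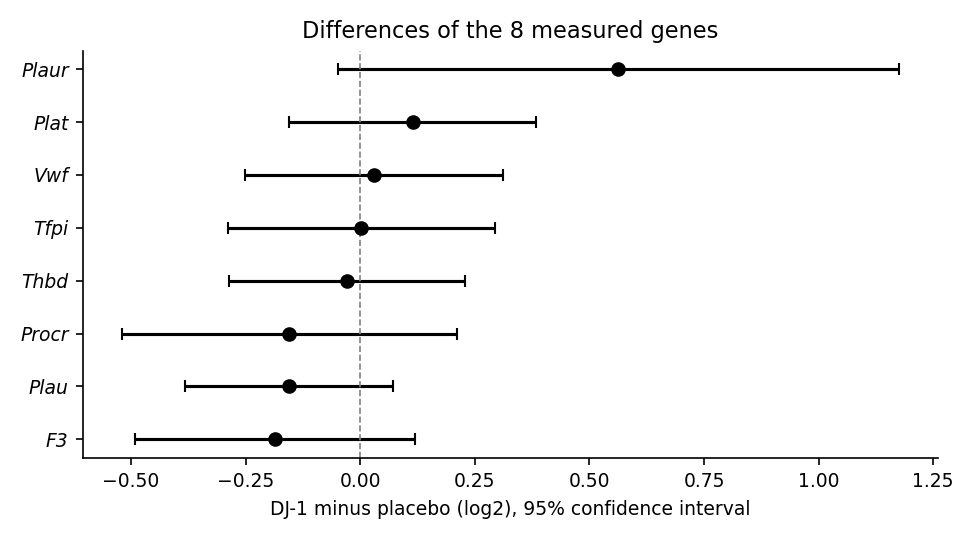
Difference between DJ-1 and placebo hearts (log2, horizontal axis) for the 8 measured genes, with 95% confidence intervals of the limma fit as bars. Every interval includes 0, and that of Plaur runs from -0.049 to 1.18.

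No relation of the 8 genes with endothelial markers passed the threshold. The mean of 10 endothelial markers, all above the olfactory level, ranged from -0.17 to 0.13 in placebo and from -0.15 to 0.036 in DJ-1 hearts. Its r over the 8 hearts was 0.056 with Vwf, 0.085 with Thbd, 0.136 with Tfpi and -0.444 with Procr, with Spearman's rho of -0.095, -0.071, 0.024 and -0.381. The exact permutation p values for r were 0.897, 0.835, 0.742 and 0.267, all with adjusted p of at least 0.611, and for rho they were 0.840, 0.882, 0.977 and 0.360, with adjusted p of at least 0.779. Without placebo replicate 1 and DJ-1 replicate 4, the hearts farthest from the median endothelial mean, r was -0.270 with Vwf and -0.154 with Procr. Over the 8 genes it then ran from -0.790 with Plaur, followed by -0.555 with Plat, to 0.038 with F3. For Plaur r was -0.188 with all hearts and 0.0073 on residuals from the group means. With so narrow a range of the list mean, a relation could be missed. Of the 10 endothelial markers, 7 had the lower mean with DJ-1, as did 7470 of the 13693 genes above the olfactory level. The leading gene was Kdr, with -0.48 (SE 0.16, limma unadjusted p = 0.0122, adjusted p = 0.824). An unadjusted limma p under 0.05 was found for 1 of the 10 and for 5.99% of all genes. With the neutrophil mean, r was 0.729 for Vwf (Spearman's rho 0.595; exact permutation p = 0.0431 and 0.132, adjusted p = 0.345 and 0.684) and 0.665 for Plat (rho 0.595; exact permutation p = 0.0751 and 0.132, adjusted p = 0.400 and 0.684). Leaving out placebo replicate 4 and DJ-1 replicate 2 left the r of Vwf at 0.739 and took that of Plat to 0.080, so the latter rested on those hearts.

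Among themselves the 8 genes formed 28 pairs, 21 of them with r above 0 and none past an adjusted p of 0.05 by Pearson's r. The 3 pairs with the smallest p were Tfpi with Vwf, Thbd with Plat, and Procr with Plau. For Tfpi and Vwf r was 0.871 (exact permutation p = 0.00605, adjusted p = 0.140) and Spearman's rho 0.952 (exact permutation p = 0.00114, adjusted p = 0.0319), and r was 0.716 without placebo replicate 2 and DJ-1 replicate 3. For Thbd and Plat r was 0.846 (exact permutation p = 0.0100, adjusted p = 0.140; rho 0.738, p = 0.0458, adjusted p = 0.428), but it was 0.297 without placebo replicate 4 and DJ-1 replicate 4, so the relation rested on those hearts. For Procr and Plau r was 0.804 (exact permutation p = 0.0183, adjusted p = 0.171; rho 0.810, p = 0.0218, adjusted p = 0.305) and 0.460 without placebo replicate 1 and DJ-1 replicate 3. On residuals from the group means these 3 values of r were 0.874, 0.940 and 0.807. Within the pathway arms, the r of F3 with its inhibitor Tfpi was 0.14 and that of Thbd with its partner Procr 0.41, with adjusted p of at least 0.801 by exact permutation.

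**Figure D4:**
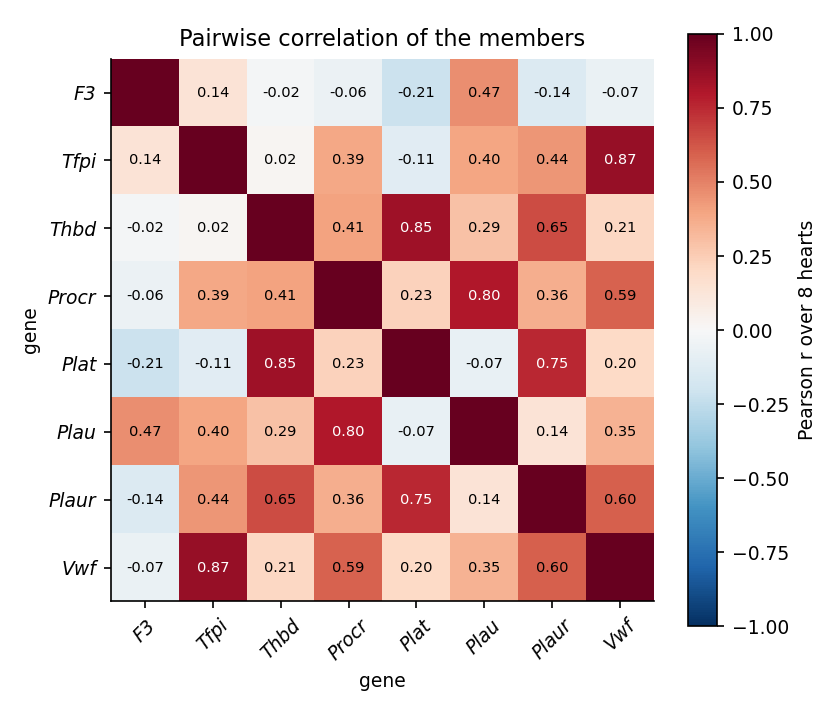
Pearson's r over 8 hearts for each pair of the 8 measured genes, with red for positive and blue for negative values and r printed in each cell. Tfpi with Vwf (0.87), Thbd with Plat (0.85) and Procr with Plau (0.80) stand highest, while F3 stays below 0.5 with every other gene when all hearts are used. Without placebo replicate 4, r of F3 was 0.718 with Thbd, 0.676 with Plaur, 0.649 with Plau, 0.625 with Plat, 0.509 with Procr and 0.376 with Vwf. With Tfpi it was at most 0.311 with any single heart left out.

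The wider pathway was read from a list of 60 other coagulation and fibrinolysis genes, of which 55 were measured and 38 lay above the olfactory level. None passed the adjusted threshold in either direction. An unadjusted limma p under 0.05 was found for 6 of the 55, all higher with DJ-1. Over all genes 5.99% had such a p, 724 of them higher and 470 lower. Among the 38 above the olfactory level 4 had such a p, all higher. Of the 13693 genes above that level 675 had it, 287 of them higher and 388 lower. The groups did not overlap for 2 of the 55, against 3.22% of all genes. In all, 34 had the higher mean with DJ-1 and 21 with placebo, and the median difference was 0.057 against 0.0082 over all genes. Among the 38 above the olfactory level, 20 had the higher mean with DJ-1 and 18 with placebo. Over all 13693 genes above that level the counts were 6223 and 7470.

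Among coagulation factors, 10 of 15 had the higher mean with DJ-1, as did 10470 of all 19938 genes. Among the 10 factors above the olfactory level it was 5, and among all 13693 genes above that level it was 6223. The prothrombin gene F2 differed by 0.33 (SE 0.11), at mean levels of 3.64 and 3.97 that lie within the olfactory range, and F10, the gene of factor X, by 0.31 (SE 0.13) at 5.30 and 5.61. Of the 3 thrombin receptor genes measured, F2r, the main one on vessel cells, stood at 8.56 ± 0.059 and 8.44 ± 0.082 (SD, n = 4 each). F2rl2 differed by 0.19 (SE 0.19), at mean levels of 4.536 and 4.725 that lie within the olfactory range. Among natural anticoagulants 9 of 10 had the higher mean with DJ-1, or 5 of the 6 above the olfactory level. None of the 10 had an unadjusted p under 0.05. The heparan sulfate proteoglycan gene Sdc4 differed by 0.19 (SE 0.11), while Pros1, the gene of the protein C cofactor protein S, had the lower mean, with -0.28 (SE 0.18).

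Among 11 genes of fibrinolysis, 5 had the higher mean with DJ-1 and 6 with placebo. Serpinf2, which encodes the plasmin inhibitor antiplasmin, differed by 0.31 (SE 0.14), and Lrp1, the receptor that clears protease and inhibitor complexes, by -0.18 (SE 0.092). Of the fibrinogen genes, Fga stood at 4.38 ± 0.10 and 4.74 ± 0.24 (SD, n = 4 each), without overlap between groups but at the olfactory level, and Fgl2, a membrane prothrombinase gene of macrophages and endothelium, at 8.74 ± 0.17 and 9.11 ± 0.36 (SD, n = 4 each). Among genes of vessel wall and platelet control, Nt5e, which makes adenosine, had the smallest p of the list, at 7.69 ± 0.14 and 8.22 ± 0.15 (SD, n = 4 each) without overlap (limma unadjusted p = 0.000391, adjusted p = 0.824), and Mmrn1, a platelet and endothelial factor V carrier gene, differed by -0.33 (SE 0.16). Every gene named from the wider list had an adjusted p of at least 0.824.

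**Figure D5:**
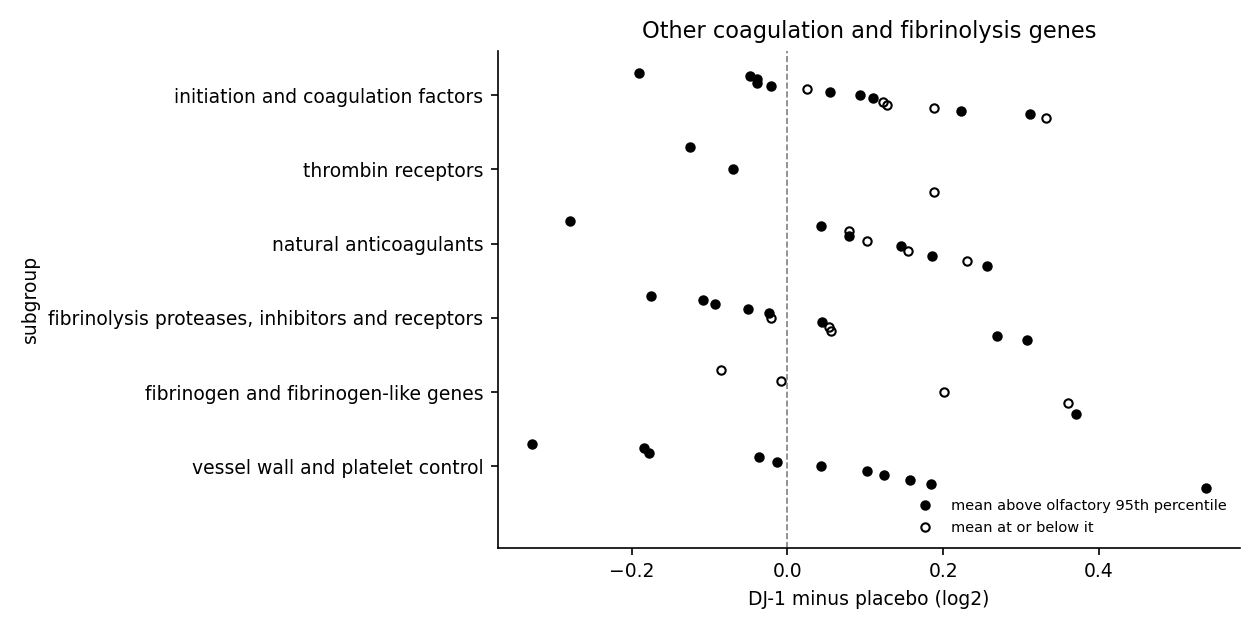
Difference between DJ-1 and placebo hearts (log2, horizontal axis) for 55 other coagulation and fibrinolysis genes in 6 subgroups (vertical axis, points spread only for legibility), 1 point per gene, filled where the mean level lies above the olfactory 95th percentile. Differences run from -0.33 to 0.54, and none passed the adjusted threshold.

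Markers of hepatocytes and platelets, the cells that supply many of these proteins outside the heart, overlapped between groups. Means of 5 hepatocyte markers, 3 of them above the olfactory level, ranged from -0.28 to 0.061 in placebo and from -0.019 to 0.20 in DJ-1 hearts, and those of 7 platelet markers, 6 above it, from -0.24 to 0.29 and from -0.13 to 0.13. The leading genes of these lists were Ahsg with 0.28 (SE 0.15) and Gp5 with 0.20 (SE 0.12), neither past the threshold (limma adjusted p = 0.824 for each). The part of these cells in the values above was not tested. All 9 cardiomyocyte markers lay above the olfactory level, as the label of myocardium requires.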

How the data were processed

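Expression was measured on 8 Affymetrix whole-transcript arrays, 1 per heart. The deposited values are on the log2 scale and were made by the authors with RMA, per the submitters' processing notes; its version and the annotation build: not given in the sources used here. RMA fits all arrays together, which can compress differences near background. Of 35556 probe sets, 21789 had a single gene symbol in the platform annotation, 1621 several and 12146 none; the RefSeq table changed 0 symbols. The probe set of highest mean stood for a gene (19938 genes), and array medians ran from 5.25 to 5.35. The groups were compared with limma 3.58.1 in R 4.3.3 (lmFit, eBayes, two-sided, no covariate) with Benjamini-Hochberg adjustment over all genes, after the fit was tested on simulated data. Differences are DJ-1 minus placebo. Correlations over hearts used exact permutation of all pairings. The number of arrays limits the precision, and no scan date or slide was examined.

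The members and lists were chosen with earlier results of these data known. Text names all members, and the 2 genes of smallest p in each pathway subgroup with any under an unadjusted p of 0.05. It also names the leading genes of the neutrophil, endothelial, hepatocyte and platelet lists, and the 5 genes most like each of the 2 members of widest range. Alternatives were other scalings, a filter on low values, the mean of probe sets, an intensity trend, array weights, a replicate block, and arrays left out.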

Additional observations from a re-analysis of the deposited data

Results flagged for a closer look

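Within groups of 4 hearts, 36 groups of values were examined (8 genes and 10 marker list means, placebo and DJ-1), and 5 of them held a heart far from the other 3, where chance gives about 1 in 20 groups. Tfpi was 9.12 in DJ-1 replicate 3 against 9.51 to 9.56 in the other DJ-1 hearts. Thbd was 7.91 in placebo replicate 4 against 8.22 to 8.28 in the other placebo hearts. The endothelial marker mean was -0.17 in placebo replicate 1 against 0.08 to 0.13 in the others of its group. The hepatocyte marker mean was -0.28 in placebo replicate 4, below the other placebo hearts, and 0.20 in DJ-1 replicate 4, above the other DJ-1 hearts.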

How the results depend on the processing

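No member passed an adjusted p of 0.05 under any of the 18 alternatives, and the lowest adjusted p of any member was 0.577 (Procr with the neutrophil mean as a covariate). The median shift of all genes stayed between -0.034 and 0.016. Plaur, Plat, Procr and Plau kept the sign of their difference in every alternative run; Plau has no value under the filter on genes above the median level. The difference of F3 was 0.0080 without DJ-1 replicates 3 and 4. Tfpi was -0.040 with median centring and -0.099 with the neutrophil covariate, and -0.067 to 0.11 with single hearts left out. Thbd was 0.0028 with quantile normalization, 0.011 with cyclic loess and 0.041 without DJ-1 replicates 3 and 4, and -0.11 to 0.034 with single hearts left out. Vwf was -0.012 with median centring and -0.10 with the neutrophil covariate, and -0.037 to 0.13 with single hearts left out. The cause of these changes was not tested. Without DJ-1 replicate 3, 1 gene of the array passed (Pramel27, limma adjusted p = 0.044, at a level in the olfactory range) against 0 with all hearts; other hearts left out gave 0. Members without overlap went from 0 to 1 (Plaur) without placebo replicate 2, and also when DJ-1 replicates 3 and 4 were left out. The share of all genes without overlap was not counted with these smaller groups, which lie apart more easily. The hearts left out held the highest placebo and the lowest DJ-1 values of Plaur, so these counts are no result about Plaur. Member pairs past an adjusted p went from 0 to 1 without placebo replicate 1 (Procr with Vwf, r = 0.972, exact permutation adjusted p = 0.0111). Of the marker relations, 1 passed in each scaling and with each heart left out, while on residuals from the group means 0 reached the pooled r of 0.948, that of Plaur being 0.937.

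The labels number the samples 1 to 4 in each group. Deviations of same-numbered hearts from their group means correlated at 0.0045, 0.171, 0.177 and 0.0081. Hearts of different numbers were not compared in this way, so these values cannot decide whether the numbers mark pairs. The main fit did not take them as pairs. With the replicate block 0 members and 0 genes passed. Plaur then had an unadjusted limma p of 0.000876, against 0.0679 without the block, and an adjusted p of 0.656.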

Other observations

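Among genes chosen as for Plaur, the pattern of Procr over the 8 hearts was followed most closely by Trim47 (r = 0.982), Acp5 (0.974), Mvb12a (0.969), Slc39a10 (0.963) and Piezo1 (0.944). Slc39a10 is a zinc importer gene and Piezo1 encodes the mechanically gated channel of endothelium and red blood cells. These genes covered narrower ranges than Procr, at 0.16 to 0.61 log2 units against 0.79.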
